A study of Arabidopsis thaliana with 24 samples.

Results

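The passage from 1 h to 6 h without phosphate (Pi) was followed in Arabidopsis thaliana roots with 6 of the 24 arrays of the series. The 6 arrays were those whose titles name minus Pi roots at 6 h (3 arrays) and minus Pi roots at 1 h (3 arrays), paired by the number of the experiment. The plants were 30 days old and grew in aerated nutrient solution under 10 h of light a day; no mutant, transgene or ecotype is named in the labels. Their roots were washed briefly in EDTA, which binds iron and other metal ions, and the plants were moved 1 h into the light to solution without Pi (minus Pi) or with 1.5 mM Pi (plus Pi), so that both arms underwent the wash and the transfer. Roots of about 20 plants were pooled per time, and the experiment was run 3 times, with 1 array per group in each run. The p-values below therefore rest on how far differences between groups varied over the 3 runs, with the spread pooled over all 8 groups. Shifts shared by all arrays of a run were taken out by the fit. The 6 plus Pi arrays of 1 and 6 h, taken at the same hours of the day, gave the passage with Pi and shared no array with the passage without it.

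Plants take up Pi as the anion and can store it in the vacuole. In Arabidopsis the MYB-type factor PHR1 activates starvation genes, and SPX proteins hold it back while Pi is sufficient. Roots that lack Pi are known to slow the growth of the primary root, to remodel membrane lipids and to recycle cell contents. Since time after transfer and time of day advance together, the effect of either within the minus Pi arm cannot be told apart. The plus Pi passage, which spans the same hours, stands beside many of the results. Where it is not printed, nothing is implied about the change with Pi.

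Without Pi the root transcriptome moved broadly between 1 and 6 h. Of 22746 probe sets, 3368 were called higher at 6 h (14.8%) and 3474 lower (15.3%) by limma at a Benjamini-Hochberg adjusted p of 0.05, and 1111 of these differed at least 2-fold (548 higher, 563 lower). With Pi, 207 were higher (0.91%) and 280 lower (1.23%), and 100 differed at least 2-fold. The change itself differed between the supplies for 2059 probe sets, with 962 more positive without Pi (4.23%) and 1097 more negative (4.82%), or 785 and 1366 after each array was centred on its median. Among the 6842 probe sets called without Pi, 1911 were also called in that test of the difference, and 4627 were called neither in it nor in plus Pi roots. A total of 339 were called in both passages, which is 69.6% of those called with Pi and 4.95% of those called without, and 161 of them rose and 171 fell in both.

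The counts depended on the number of runs. Left without experiment 1, 2 or 3, the fit called 4044, 3707 and 5145 probe sets without Pi, 151, 87 and 157 with Pi, and 317, 242 and 703 for the difference. The first principal component of the 6 arrays held 45.2% of their variance, of which 95.8% lay between the times, and the second held 38.6%, of which 98.4% lay between the experiments. Of 22746 probe sets, those that named 1 gene gave 2424 of the rises and 2590 of the falls.

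**Figure D1:**
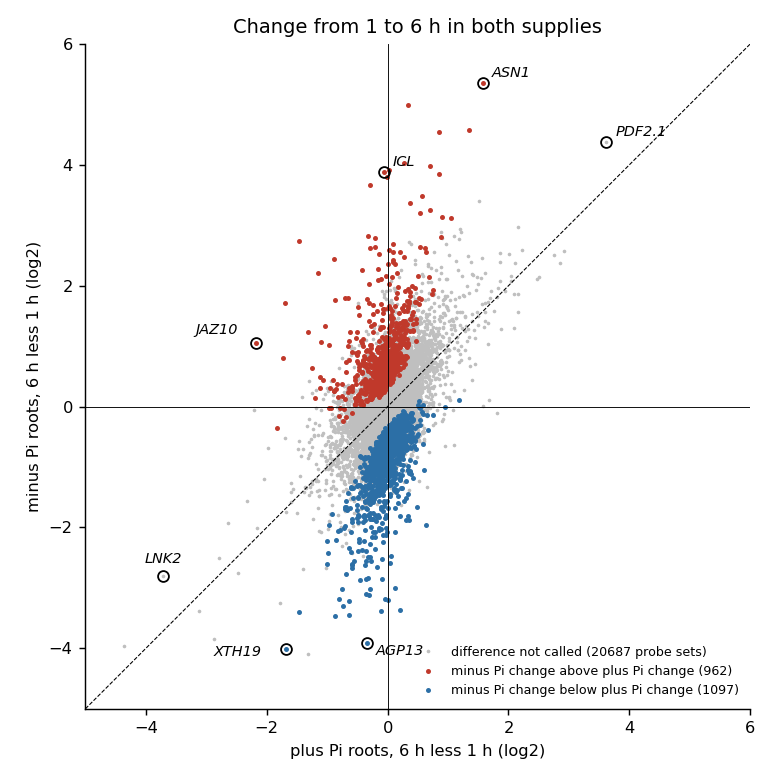
Change from 1 to 6 h in log2 units for 22746 probe sets, with plus Pi roots on the horizontal and minus Pi roots on the vertical axis; the dashed line marks equal change. The 962 red and 1097 blue probe sets are those whose change differed between the supplies, and most of the cloud is stretched along the vertical axis.

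The largest rise among probe sets that name a gene was that of ASN1. ASN1 (AT3G47340), the dark- and starvation-induced asparagine synthetase, stood at 6.59, 4.72 and 7.11 on the log2 scale at 1 h in experiments 1 to 3 and at 12.55, 11.31 and 10.63 at 6 h. It rose by 5.35 (SE 0.787, limma adjusted p = 9.7e-05), which is 40.9-fold, and the groups did not overlap. The plus Pi roots went from 6.48 ± 0.47 to 8.06 ± 1.53 (SD, n = 3), a change that was not called (1.57, adjusted p = 0.40), and the difference between the supplies (3.78, adjusted p = 0.043) was lost without any one of the experiments (adjusted p = 0.063, 0.32 and 0.087) and held with 3 of the 12 arrays of the 4 groups left out singly.

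ICL (AT3G21720), isocitrate lyase, the glyoxylate-cycle enzyme that lets acetyl units from fat become sugar, gave the clearest contrast. Its values were 4.71, 5.26 and 4.93 at 1 h and 8.87, 8.55 and 9.14 at 6 h without Pi, a rise of 3.88 (SE 0.174, limma adjusted p = 4.6e-10). All 6 plus Pi arrays of 1 and 6 h lay at 4.43 to 5.20, at the level of the minus Pi roots at 1 h. The difference of 3.94 was called with each array and each experiment left out in turn. By 24 h ICL in minus Pi roots was back at 5.23 ± 0.32 (SD, n = 3).

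PPDK (AT4G15530), pyruvate orthophosphate dikinase, rose by 3.98 (SE 0.695), from 5.67, 5.67 and 6.86 to 10.72, 9.91 and 9.52. MSS1 (AT5G26340, also STP13), a hexose-proton symporter of the plasma membrane, rose by 4.58 (SE 0.36), from 5.05, 5.80 and 6.61 to 10.61, 10.58 and 10.02. Neither gene's groups overlapped. MSS1 was also at a higher mean in plus Pi roots at 6 h, at 6.76 ± 0.27 against 5.42 ± 0.60 (SD, n = 3; limma adjusted p = 0.062), and its passage differed between the supplies by 3.24 (adjusted p = 0.0014, and 0.074 without experiment 2). The difference of PPDK (3.28, adjusted p = 0.046) was lost without experiment 2 (adjusted p = 0.39) or 3 (0.096), and held with 2 of the 12 single arrays left out.

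The 15 largest rises also held genes of other kinds. NIT4, a nitrilase that acts on beta-cyanoalanine, a product of cyanide detoxification, rose by 4.55 (SE 0.46), and its 3 arrays at 6 h (8.90 to 9.96) all lay above those at 1 h (4.69 to 5.04). NAC6 (AT5G39610, also ORE1), a NAC factor of leaf ageing, rose by 3.38 and the ERF factor gene Rap2.6L by 3.20. PGIP1, an inhibitor of fungal polygalacturonases, rose by 3.49. The defensin gene LCR67 went from 3.98 ± 0.15 (SD, n = 3) to 5.72, 7.44 and 10.19, so its rise of 3.80 differed widely between the runs. AT3G60420 rose 31.9-fold, and AT2G41380, AT4G33666 and AT3G63380 rose by 4.03, 3.13 and 2.94.

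For some of the largest rises the difference between the supplies was not called, which does not show that they were independent of the supply. PDF2.1, another defensin gene, rose by 4.37 without Pi (SE 0.48) and by 3.62 with Pi (limma adjusted p = 0.00051), and the difference of 0.75 was not called (adjusted p = 0.53). DIN2, a dark-induced beta-glucosidase gene, rose by 3.40 without Pi (SE 1.15, adjusted p = 0.032) and stood 1.52 higher with Pi, not called. The difference of 1.88 was not called either (adjusted p = 0.51), nor was that of AT3G63380 (1.74, adjusted p = 0.20). The call of the rise of DIN2 without Pi was lost without experiment 1 (adjusted p = 0.096) or 2 (0.23). It was also lost without any one array of those runs (0.071 to 0.17) or the 3 arrays numbered out of sequence (0.099).

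Of 15 measured sugar-starvation genes, 9 were higher and 1 lower at 6 h in minus Pi roots, with a median change of 1.72 (1.56, 1.84 and 1.07 in experiments 1 to 3), against a median of -0.02 over all probe sets. Over all probe sets 14.8% were higher and 15.3% lower without Pi, and the counts of each list below stand against these shares. The lists were chosen with earlier results of these data known, so a count above these shares is a description and not a test. DYL1 (AT1G28330, a dormancy-associated gene also called DRM1) rose by 2.39 (SE 0.27), GDH1, a subunit of glutamate dehydrogenase, by 1.72 (SE 0.27), and BZO2H3 (also bZIP63), a target of the energy sensor kinase SnRK1, by 1.3 (SE 0.25). TPS5, of the trehalose phosphate synthase family, fell by 0.35 (SE 0.11), a call lost without experiment 1 or 2 (adjusted p = 0.078 and 0.29), and in 4 of the 9 other leave-outs (0.066 to 0.15). In plus Pi roots 1 of the 15 was called: DYL1 rose there too, by 1.87 (adjusted p = 0.00086), from 9.16 ± 0.34 to 11.02 ± 0.28 (SD, n = 3). The list's median with Pi was 0.59, and ASN1 was the gene of the list with a called difference.

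Autophagy genes, whose products enclose cytoplasm for breakdown in the vacuole, were higher in 19 of 20 cases, with a median of 0.67 (0.77, 0.65 and 0.55 in the 3 experiments). ATG8D, a ubiquitin-like protein of the autophagosome membrane, rose by 1.42 (SE 0.14), from 7.81, 8.30 and 8.57 to 9.45, 9.61 and 9.88. The cargo receptor gene NBR1 rose by 0.94 (SE 0.13), and ATG13 and AT3G53930 (ATG1B), both of the initiating kinase complex, by 0.79 (SE 0.11) and 0.67 (SE 0.10). With Pi the median was 0.15 and ATG8D was the member called (0.86, adjusted p = 0.0022). The change was more positive without Pi for 7 of the 20, a count that ran from 0 to 9 when single experiments or arrays were left out.

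Of 13 genes of the glyoxylate cycle, fatty acid oxidation and gluconeogenesis, 11 rose, with a median of 1.12 (0.32 with Pi). PKT3 (also KAT2), the peroxisomal thiolase of beta-oxidation, rose by 1.12 (SE 0.13), ACX2, an acyl-CoA oxidase, by 1.36 (SE 0.18), and CSY2, the peroxisomal citrate synthase, by 1.01 (SE 0.13). Without experiment 1 the count was 6 of 13. For 7 of the 13 the change was more positive without Pi (1 to 7 in the leave-outs).

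Of 12 genes of branched-chain amino acid and lysine breakdown, 10 rose and 1 fell, with a median of 0.68 (0.16 with Pi). ETFQO, which passes electrons from this breakdown to the respiratory chain, rose by 0.97 (SE 0.20), and its electron donors ETFALPHA and ETFBETA by 0.54 (SE 0.11) and 0.44 (SE 0.10). AT5G09300 fell by 0.38, a call that 7 of the 11 leave-outs ended (adjusted p = 0.056 to 0.16). ALDH6B2, a methylmalonate-semialdehyde dehydrogenase, rose by 0.82 (SE 0.16). The difference between the supplies was called for 0 of the 12 by limma (3 at an unadjusted p of 0.05), with a median of 0.41. The count of rises was 4 without experiment 2, and 6 without its array at 1 h or without the 6 h array of experiment 1.

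In the list of alternative respiration and glycolytic bypass, 2 of 10 genes rose and 4 fell. NDB4, a mitochondrial NAD(P)H dehydrogenase that bypasses complex I, rose by 2.03 (SE 0.28), from 4.51 ± 0.15 (SD, n = 3) to 6.54 ± 1.16 (SD, n = 3), and AT2G21640 by 1.71 (SE 0.17). These 3 subunit genes of the pyrophosphate-dependent phosphofructokinase, which saves ATP in glycolysis, fell: AT1G20950 by 0.99 (SE 0.12), AT1G12000 by 0.72 (SE 0.13) and AT1G76550 by 0.59 (SE 0.09). DIC2, a mitochondrial dicarboxylate carrier gene, fell by 1.64 (SE 0.30).

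**Figure D2:**
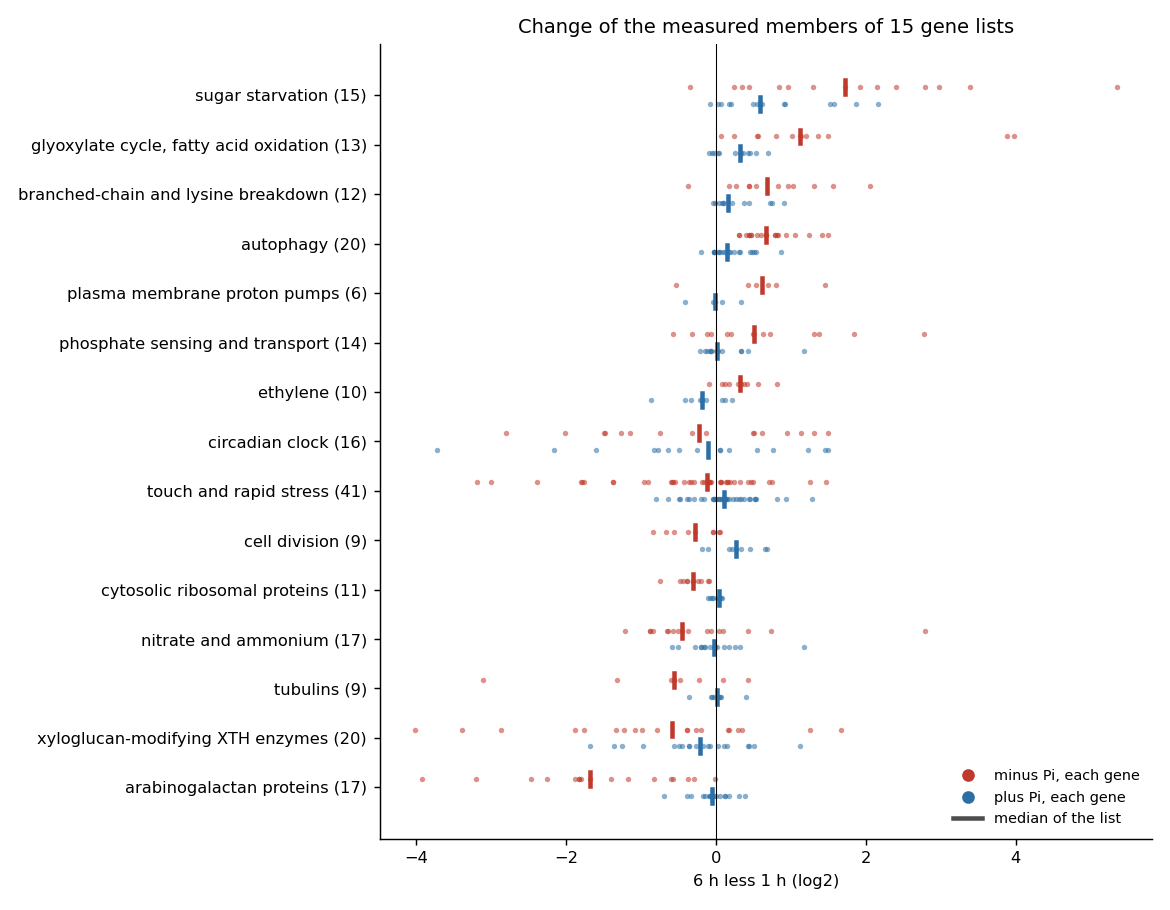
Change from 1 to 6 h in log2 units for the measured members of 15 gene lists; each point is a gene, the thick bars are list medians, and the number of measured genes is in brackets. Medians without Pi (red) run from 1.72 for sugar starvation to -1.68 for arabinogalactan proteins, and those with Pi (blue) from 0.59 to -0.22.

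Of 14 measured genes of Pi sensing and transport, 7 rose, 2 fell and 5 were not called. The 2 falls were a share near the 15.3% of all probe sets. SPX1 (AT5G20150), whose protein inhibits PHR1 when Pi is sufficient, stood at 5.98, 5.63 and 7.06 at 1 h and at 8.31, 7.94 and 7.93 at 6 h. It rose by 1.84 (SE 0.34, limma adjusted p = 0.00065) with no overlap of the groups, and reached 10.02 ± 0.12 (SD, n = 3) at 24 h; without experiment 2 the call was lost (adjusted p = 0.055). In plus Pi roots SPX1 differed by 0.43 (adjusted p = 0.66), and the difference of 1.41 between the supplies was not called (adjusted p = 0.076). PHR1 (AT4G28610) itself rose by 0.50 (SE 0.09, adjusted p = 0.00062), from 7.26, 6.91 and 7.23 to 7.76, 7.58 and 7.55, against -0.15 with Pi. The difference of 0.65 (adjusted p = 0.0063) was called with each single array left out but with none of the experiments left out (adjusted p = 0.051 to 0.13).

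The median of this list was 0.50 (0.39, 0.82 and 0.19 in the 3 experiments, 0.01 with Pi). LPR1 and LPR2, multicopper ferroxidases that arrest root growth at low Pi together with iron, rose by 1.3 (SE 0.16) and 1.37 (SE 0.17), and their differences between the supplies were 1.28 (adjusted p = 0.0027, and 0.10 without experiment 1) and 1.04 (adjusted p = 0.012, and 0.11 and 0.13 without experiment 2 or 3). WRKY75, a factor induced by Pi starvation, rose by 2.78 (SE 0.47) and stood 1.17 higher with Pi, not called (limma adjusted p = 0.25). Its difference between the supplies, 1.61, was not called (adjusted p = 0.14). PHT3;1, the mitochondrial Pi carrier, fell by 0.57 (SE 0.10). SPX4, a cytosolic partner of PHR1, fell by 0.33 (SE 0.11), a call that 8 of the 11 leave-outs ended (adjusted p = 0.052 to 0.20). Without experiment 2 the count of rises was 4. The change was more positive without Pi for 5 of the 14 (1 to 6 in the leave-outs).

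Of 11 measured genes of Pi scavenging and lipid remodelling, 4 rose and 1 fell, with a median of 0.13 (0.09 with Pi). The 1 fall was a share below the 15.3% of all probe sets. PAH2, a phosphatidate phosphatase that frees phospholipid Pi, rose by 0.66 (SE 0.10), and SQD1 and UGP3, which make sulfolipid precursors, by 0.50 (SE 0.12) and 0.54 (SE 0.14). SQD1 was not called without experiment 1 (adjusted p = 0.079), nor UGP3 without experiment 3 (0.078) or the 2 arrays with a suffix (0.061). MGD2, a galactolipid synthase known to be induced by lasting Pi starvation, fell by 0.68 (SE 0.19), from 5.73, 4.82 and 4.71 to 4.36, 4.39 and 4.45, a call that 4 of the 11 leave-outs ended (adjusted p = 0.051 to 0.18). MGD1, a galactolipid synthase of the plastid envelope, rose by 0.39 (SE 0.12), a call ended by 7 of the 11 leave-outs (adjusted p = 0.062 to 0.27). Without experiment 3, or without the 2 arrays with a suffix, 2 rose.

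Of 897 genes on 36 lists, 466 were represented by a named probe set. The counts of each list cover its measured genes only. These were 9 of 31 for cell division, 10 of 27 for ethylene, 6 of 27 for jasmonate and 11 of 35 for cytosolic ribosomal proteins. The leave-outs for a single gene were the 3 experiments, the 6 arrays, and the sets of arrays whose scan file numbers stand out in the labels (3 arrays numbered out of sequence and 2 with a suffix). Of 170 named genes with a call, 113 kept it in all of these. Of 89 named genes with a called difference between the supplies, 62 kept it with each single array left out and 26 also with each experiment left out.

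**Figure D3:**
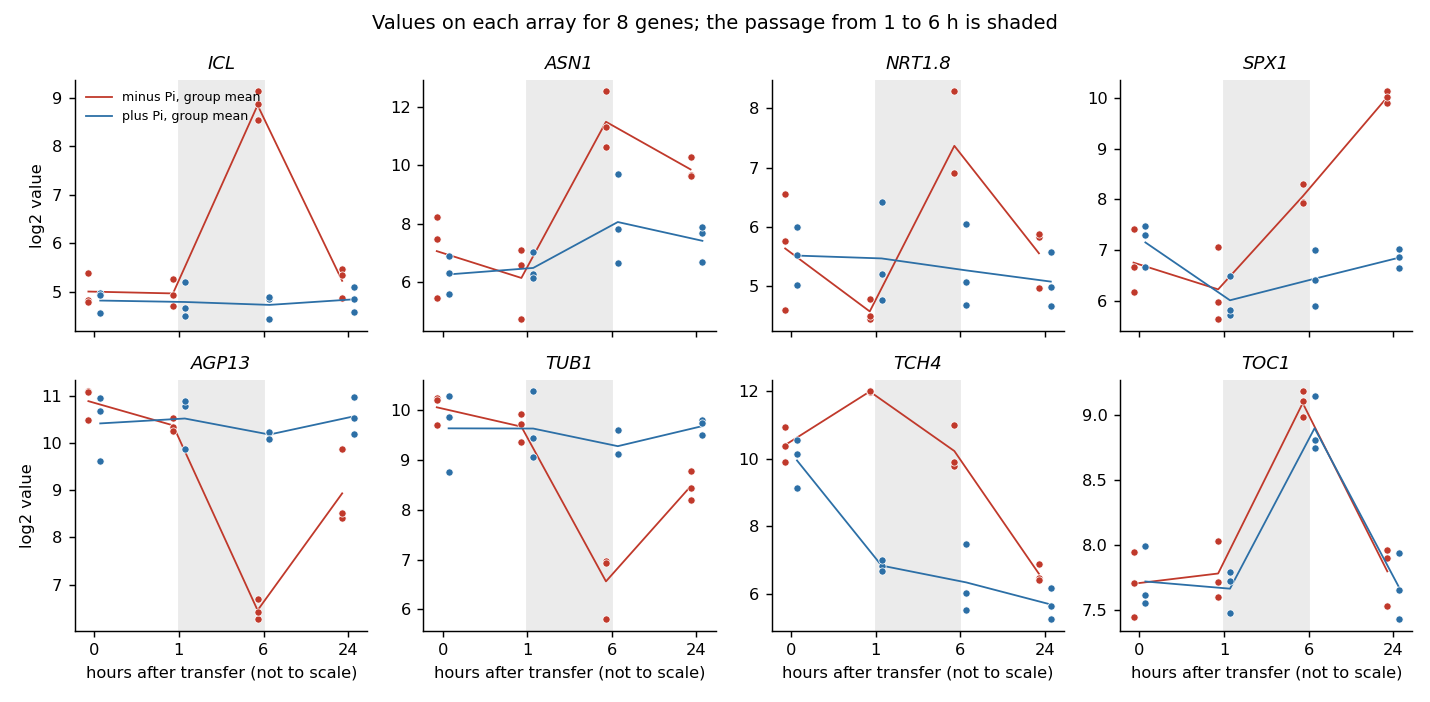
Values on the log2 scale on each array (points) and group means (lines) for 8 genes at 0, 1, 6 and 24 h after transfer, in minus Pi (red) and plus Pi roots (blue); the hours are evenly spaced and not to scale. ICL, ASN1 and NRT1.8 peak and AGP13 and TUB1 dip at 6 h without Pi, SPX1 climbs on to 24 h, and TOC1 rises alike in both supplies.

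Several wall-related genes were among the 15 largest falls. Arabinogalactan proteins, glycoproteins of the cell surface and wall, fell in 14 of 17 cases, with a median of -1.68 (-1.63, -1.65 and -1.32 in the 3 experiments) against -0.05 with Pi. AGP13 (AT4G26320) stood at 10.34, 10.52 and 10.25 at 1 h and at 6.26, 6.69 and 6.42 at 6 h, and fell by 3.92 (SE 0.28, limma adjusted p = 8.4e-08). The 6 plus Pi arrays of these times lay at 9.88 to 10.90, and the minus Pi roots at 24 h at 8.93 ± 0.82 (SD, n = 3). AGP22 fell by 3.20 (SE 0.25), from 12.05, 11.51 and 11.31 to 8.04, 8.88 and 8.35, AGP4 by 2.47 (SE 0.20), and the fasciclin-like FLA2 by 1.81 (SE 0.13).

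The change was more negative without Pi for 12 of the 17, and for 8 to 12 in the leave-outs, whereas none was more positive. The differences of AGP13 (-3.58), AGP22 (-3.20), AGP4 (-2.52) and FLA2 (-1.42) were called with each array and each experiment left out in turn.

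Xyloglucan-modifying XTH enzymes, which cut and rejoin wall polymers during expansion, fell in 9 of 20 cases and rose in 1, with a median of -0.59 (-0.22 with Pi). XTH19 went from 11.22, 11.27 and 11.10 to 6.20, 7.41 and 7.92, a fall of 4.02 (SE 0.39), and it also fell with Pi, by 1.68 (adjusted p = 0.032). XTH16 fell by 3.39 (SE 0.285) from 9.28, 8.44 and 8.19 to 5.66, 4.99 and 5.10, and differed by -0.10 with Pi. XTH21 and XTH5 fell by 2.87 (SE 0.28) and 1.89 (SE 0.28). XTH24 was the gene that rose, by 1.67 (SE 0.55), a call that 5 of the 11 leave-outs ended (adjusted p = 0.09 to 0.17).

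Among 17 expansins, which loosen the wall, 5 fell and 2 rose, with a median of -0.19. The 2 rises were a share below the 14.8% of all probe sets. Leaving out any 1 experiment, the 1 h array of experiment 1 or 3, the 6 h array of experiment 1, or either set of arrays with odd scan numbers gave 3 falls. The expansin-like genes EXLA2 and EXLA1 fell by 3.21 (SE 0.24) and 1.99 (SE 0.38), and EXLB1 rose by 2.03 (SE 0.23) without Pi and by 1.49 (adjusted p = 0.0019) with Pi. Among the other large falls, sks15, a SKU5-like gene, fell by 3.47 and the ABC-family gene ABCI21 fell by 3.24. AT4G22460 fell by 3.45, AT1G09750 fell by 3.37, AT5G15725 fell by 3.31, AT4G25250 fell by 3.18, AT1G76240 fell by 3.12 and AT3G59370 fell by 3.02. ABCI21 also fell with Pi, by 1.78 (adjusted p = 0.0066).

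Of 9 tubulin genes 6 fell, with a median of -0.56 (0.01 with Pi). TUB1 (AT1G75780) went from 9.73, 9.93 and 9.35 to 5.80, 6.96 and 6.92, and fell by 3.11 (SE 0.32) with no overlap, against -0.35 with Pi. TUB5 fell by 1.33 (SE 0.16) and TUB7 by 0.60 (SE 0.10). The actin gene ACT11 fell by 2.24 (SE 0.13), from 8.95, 8.89 and 8.54 to 6.50, 6.60 and 6.55, and its plus Pi arrays stayed at 7.91 to 8.63.

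Of 9 measured cell division genes 4 fell, with a median of -0.28, and in plus Pi roots 2 rose, with a median of 0.26. The Aurora kinase genes AUR1 and AUR2 fell by 0.66 (SE 0.11) and 0.84 (SE 0.16). PRL, a subunit of the replication licensing complex, fell by 0.37 (SE 0.10) and the mitotic cyclin CYCB1;1 by 0.56 (SE 0.20). PRL lost its call in 5 of the 11 leave-outs (adjusted p = 0.051 to 0.22) and CYCB1;1 in 8 (0.058 to 0.46). The count was 2 without experiment 2, without its array at 1 h or at 6 h, or without the 3 arrays numbered out of sequence.

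Of 11 genes of cytosolic ribosomal proteins measured under a name, 8 fell, by small amounts, with a median of -0.31 (0.04 with Pi). RPL23AB fell by 0.75 (SE 0.12), RPL5B by 0.48 (SE 0.10), RPS28 by 0.44 (SE 0.09) and BBC1 by 0.30 (SE 0.06). The arrays of BBC1 stood at 12.81, 12.81 and 12.81 at 1 h and at 12.49, 12.54 and 12.49 at 6 h. Without experiment 1 the count was 4 and RPS28 was not called (adjusted p = 0.058). In whole roots, fewer cells of a type and less RNA per cell cannot be told apart.

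Markers of root cell types were followed beside these falls, as the sum of their linear values in each array, on a log2 scale. Genes with high values weigh most in such a sum. Cell division markers summed to 10.97 to 11.20 at 1 h and 10.62 to 10.93 at 6 h without Pi, and to 11.35 to 11.47 at 6 h with Pi. Root hair markers summed to 11.54 to 12.41 and 11.60 to 12.11, and SHV2 (COBL9), the 1 of 17 called lower, lost its call in 7 of the 11 leave-outs (adjusted p = 0.052 to 0.076). Xylem markers summed to 10.75 to 10.90 and 10.75 to 10.97. Suberin markers reached 11.06 at 1 h and 11.32 at 6 h, and their sum was higher at 6 h in each of the 3 experiments. Of these 15 genes 1 rose and 1 fell, shares below those of all probe sets, with a median of 0.04. The gene that fell was CER4, 3.63-fold lower at 6 h. The 7 root identity markers summed to 12.25, 12.65 and 13.09 at 1 h and to 12.47, 13.10 and 13.10 at 6 h, also higher in each experiment. With Pi they went from 12.62, 12.73 and 12.96 to 12.79, 13.17 and 13.11, likewise higher in each experiment. Of these 7 genes, 1 rose without Pi, a share near the 14.8% of all probe sets, and 2 fell. Their median change was -0.28 (-0.26, -0.53 and -0.41 in the 3 experiments), against -0.02 with Pi. Without Pi the median was therefore negative while the sum rose. PYK10, a root beta-glucosidase, rose by 0.62, a call that 7 of the 11 leave-outs ended (adjusted p = 0.076 to 0.28). MYB66 (WEREWOLF), a factor of hairless epidermal cells, fell by 2.04 (SE 0.18), from 8.37, 8.13 and 7.84 to 6.25, 6.00 and 5.96, and by 1.91 more than with Pi (adjusted p = 0.00041).

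Leaf tissue markers, photosynthesis genes, summed to 8.38 to 8.85 at 1 h and 9.04 to 9.25 at 6 h without Pi, and to 8.52 to 9.91 at 6 h with Pi. LHCB4.1 and LHCA1, of the light-harvesting antenna, were the 2 of 9 that rose, by 1.31 and 0.59, and both lost their call without experiment 2 (adjusted p = 0.057 and 0.37), LHCA1 also without any one array. The sum of the 9 markers was higher at 6 h in each experiment, both without and with Pi. With Pi it went from 8.66, 8.59 and 8.38 at 1 h to 9.91, 9.12 and 8.52 at 6 h. The list's median change was -0.03, against 0.29 with Pi, and the difference was called for 0 of 9 by limma (1 at an unadjusted p of 0.05). The part of these markers in the other results was not tested.

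Touch and rapid stress genes had a median gap to plus Pi roots of 1.17 (log2) at 1 h and 0.71 at 6 h. TCH4 (AT5G57560), a touch-induced XTH enzyme, stood at 11.99 ± 0.01 (SD, n = 3) at 1 h and at 10.98, 9.78 and 9.91 at 6 h, a fall of 1.76 (SE 0.40, limma adjusted p = 0.0029). It was then still above the plus Pi roots, at 6.33 ± 1.00 (SD, n = 3), and it reached 6.59 ± 0.26 at 24 h. Without experiment 2 the call was lost (adjusted p = 0.10). The difference of its passage between the supplies (-1.26) was not called (adjusted p = 0.17).

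In this list 9 of 41 genes fell and 1 rose, with a median of -0.12. PHI-1, a phosphate-induced wall protein of the EXO family, fell by 3.00 (SE 0.44), EXO by 2.39 (SE 0.23), TCH2 by 1.79 (SE 0.16), and the calmodulin-like AT1G76640 (CML39) fell by 3.19 (SE 0.40). WRKY18, a defence-related factor, fell by 1.37 (SE 0.24). The gene that rose was ZAT6, a zinc finger factor, by 1.47 (SE 0.37), a call lost without experiment 2 (adjusted p = 0.20) or the 3 arrays numbered out of sequence (0.060). With Pi the median was 0.11, 1 gene rose and 0 fell by limma (5 differed at an unadjusted p of 0.05). The change was more negative without Pi for 7 (2 to 7 in the leave-outs).

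The differences between the passages can be read from the gap between the supplies at each time. At 1 h EXLA2 was 3.21 higher without Pi than with it and at 6 h 0.65 higher, and AT5G47440 went from 2.15 to 0.00, so these gaps narrowed. AGP13 went from -0.15 to -3.72, TUB1 from 0.04 to -2.72 and ACT11 from 0.45 to -1.71, so these gaps widened. Of the 1097 probe sets with a more negative change without Pi, 881 (80.3%) had the larger gap at 6 h and 216 (19.7%) at 1 h. Of the 962 with a more positive change, 750 (78.0%) had the larger gap at 6 h. These shares describe group means and were not tested.

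**Figure D4:**
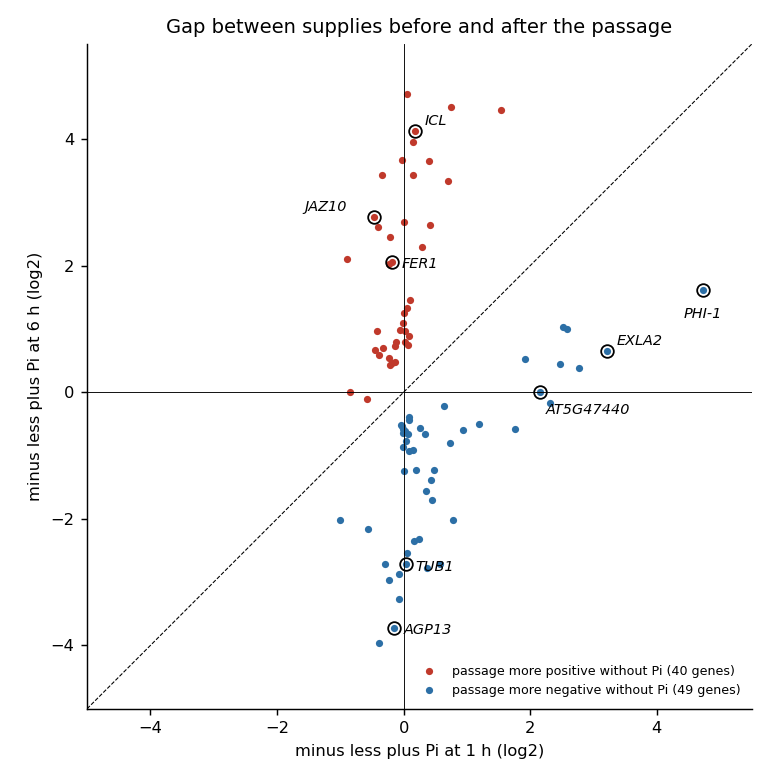
Minus less plus Pi group means in log2 units at 1 h (horizontal) and 6 h (vertical) for the 89 named genes whose passage differed between the supplies; the dashed line marks an equal gap. Most points lie near the vertical axis, with little gap at 1 h and a wide one at 6 h, while PHI-1 and EXLA2 lie far to the right with the larger gap at 1 h.

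Among probe sets that name a gene, the smallest adjusted p of the difference belonged to ICL and, after it, to AT2G41380, BGLU25, AT5G61890, AT5G19440 and SNF7.1 on the positive side. BGLU25, of the beta-glucosidase family, rose from 8.28, 8.96 and 8.95 to 11.18, 11.18 and 11.42, and its plus Pi arrays of 1 and 6 h lay at 8.14 to 8.96. SNF7.1, a subunit of the ESCRT-III membrane-cutting complex, rose by 0.42 without Pi and fell by 0.35 with Pi (adjusted p = 0.0061). On the negative side stood AT5G47440, ACT11, AT1G59660, CDI, BME3 (a GATA-type factor) and AGP13, with differences of -2.15, -2.16, -2.47, -1.55, -1.69 and -3.58. Each of these 12 differences was called in every leave-out.

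Of 7 probe sets called in opposite directions in the 2 passages, JAZ10 (AT5G13220), a repressor of jasmonate responses, had the largest difference among those naming a gene. Without Pi it stood at 5.34, 6.87 and 7.50 at 1 h and at 7.14, 8.09 and 7.62 at 6 h, and with Pi at 6.65, 7.31 and 7.14 and then at 4.71, 4.65 and 5.18. It rose by 1.05 without Pi (adjusted p = 0.014) and fell by 2.18 with Pi (adjusted p = 0.00063). The difference of 3.23 (adjusted p = 0.00038) was called in each leave-out, whereas the rise without Pi was lost without experiment 1 or 2 (adjusted p = 0.15 and 0.11), without the 1 h array of experiment 1 (0.099), without the 6 h array of experiment 2 (0.087) or without the 3 arrays numbered out of sequence (0.11). CYP94B3, which oxidises jasmonoyl-isoleucine, rose by 1.35 (SE 0.33; adjusted p = 0.10 without experiment 2), and the other 4 jasmonate genes measured were not called.

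Of 10 ethylene genes, 5 rose, with a median of 0.31 (-0.19 with Pi); leaving out experiment 1 or 2 left 1, and leaving out the 6 h array of experiment 1 or the 1 h array of experiment 2 left 2. CTR1, the kinase that keeps ethylene signalling off, rose by 0.82 (SE 0.09), from 7.94, 7.92 and 8.31 to 8.80, 9.04 and 8.78, and the receptor gene ERS1 by 0.55 (SE 0.14). The difference of CTR1 between the supplies, 1.03 (adjusted p = 0.00021), was called in each leave-out. EIN3 and EIN2, positive components of the pathway, rose by 0.38 and 0.30, and like ERS1 lost their call without experiment 1 (adjusted p = 0.095, 0.36 and 0.11) or 2 (0.15, 0.063 and 0.13).

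Of 13 iron genes 2 rose and 2 fell, shares near the 14.8% and 15.3% of all probe sets. FER1, the iron-storage protein ferritin, rose by 2.36 (SE 0.28), from 10.17, 9.77 and 10.13 to 12.28, 12.30 and 12.56, and by 0.12 with Pi, not called. The difference of 2.24 (adjusted p = 0.0029) was lost without experiment 1 (adjusted p = 0.10). The iron-deficiency genes bHLH39, a regulator, and OPT3, a phloem iron transporter, fell by 2.68 (SE 0.50) and 1.99 (SE 0.36), and PYE, another regulator of iron deficiency, rose by 0.39, a call that 8 of the 11 leave-outs ended (adjusted p = 0.052 to 0.22). IRT1, the root iron importer, stood at 6.79, 7.88 and 9.05 and then at 4.70, 7.69 and 6.96, a change of -1.46 that was not called (adjusted p = 0.22).

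Of 17 nitrate and ammonium genes, 7 fell and 2 rose, with a median of -0.45 (-0.03 with Pi). NRT1.8, which takes nitrate back out of the xylem sap, rose by 2.79 (SE 0.48), from 4.44, 4.78 and 4.50 to 8.29, 6.90 and 6.90, with no overlap. It differed by -0.20 with Pi, and the difference of 2.99 (adjusted p = 0.012) was lost without experiment 2 (adjusted p = 0.12) or 3 (0.093). GS2, the plastid glutamine synthetase, fell by 0.88 (SE 0.14), the asparagine synthetase gene ASN2 by 0.89 (SE 0.17) while ASN1 rose, and LBD37, a nitrogen-responsive repressor, by 0.84 (SE 0.17; adjusted p = 0.097 without experiment 1). The count of falls was 4 without experiment 1 or 2. Of 12 sulfate genes 0 were called by limma (1 at an unadjusted p of 0.05), with a median of 0.15.

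Clock genes moved with and without Pi, and the difference between the supplies was called for 2 of them. Of 16 measured genes, 7 rose and 7 fell without Pi, and 4 rose and 4 fell with Pi; without experiment 2, or without the 6 h array of experiment 1, 4 rose. TOC1 (AT5G61380), an evening component of the clock, went from 7.71, 7.60 and 8.03 to 9.18, 8.98 and 9.11 without Pi and from 7.47, 7.79 and 7.72 to 9.14, 8.74 and 8.80 with Pi. It rose by 1.31 (SE 0.15) and 1.23, and the difference was 0.08 (adjusted p = 0.86). PRR3, of the pseudo-response regulators, rose by 1.50 in both arms, and GI, which acts in the evening, by 0.94 and 0.76.

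The morning genes AT3G54500 (LNK2), AT5G06980 (LNK4) and AT5G64170 (LNK1) fell by 2.80, 2.02 and 1.26 without Pi and by 3.72, 2.16 and 1.61 with Pi. TCP11 (CHE), which binds the CCA1 promoter, was the exception: it fell by 1.48 (SE 0.15) without Pi, from 8.55, 8.15 and 7.90 to 6.93, 6.53 and 6.71, and differed by 0.05 with Pi. Its difference of -1.53 (adjusted p = 0.00059) was called in each leave-out. RVE2, named after its values were seen, was the other clock gene with a called difference, more negative without Pi (adjusted p = 0.026).

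**Figure D5:**
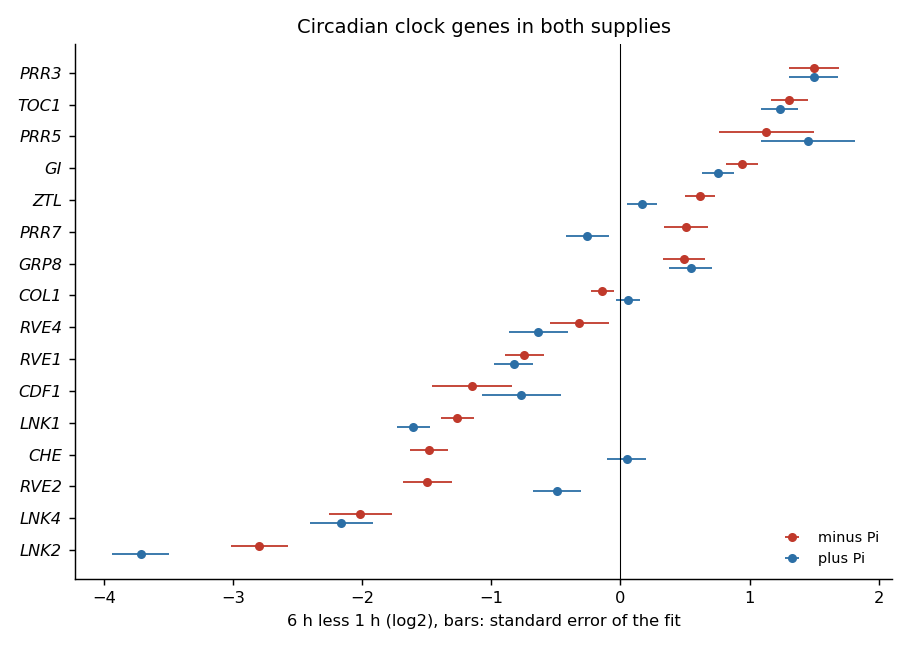
Change from 1 to 6 h in log2 units for 16 clock genes without Pi (red) and with Pi (blue); bars are standard errors of the limma fit. TOC1, PRR3 and GI lie on the positive side and the LNK genes on the negative side in both supplies, and TCP11 (drawn as CHE) fell by 1.48 without Pi and differed by 0.05 with Pi.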

How the data were processed

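Total root RNA was measured on 24 one-colour Affymetrix arrays, 3 for each of 8 groups. The deposited value table holds log2 values per probe set (2.61 to 14.2, with array medians of 6.34 to 6.45). The authors' summarisation and scaling of the arrays are not stated in the labels or headers; limma was used, per the submitters' processing notes. The authors' deposited comparison table, with log2 fold changes, test statistics (a score, per the file headers) and p-values per the file headers, was used here only for its locus column.

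After 64 control probe sets were left out, 22746 were tested. Genes were named from the deposited locus column or, failing that, the platform annotation in GEO, some of it old: 17103 probe sets named 1 gene, 672 several and 4971 none. Symbols came from NCBI's table for TAIR10.1. R 4.3.3 with limma 3.58.1 fitted a mean per group and the experiment as a block to all 24 arrays (14 residual degrees of freedom), with empirical Bayes moderation and Benjamini-Hochberg adjustment over 22746 probe sets. Calls rest on spread pooled over groups and probe sets, and the number of arrays limits their precision. The experiment number marks a run in the labels; deviations of same-numbered arrays correlated with r of 0.375 to 0.712 without Pi and 0.413 to 0.739 with Pi. Replicate arrays of the 2 groups correlated with r of 0.963 to 0.990, and 0 pairs were identical. The fit was tested on simulated data.

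The members and the 36 gene lists were chosen with earlier results of these data known. A listed gene was represented by its probe set with the highest mean, and lists are described by counts and medians only. Named genes were the 15 largest called rises and falls with one sign in 3 experiments, the 6 smallest adjusted p per sign of the difference, up to 4 called members per list and direction, and 12 fixed genes. Alternatives were no block or a random block, fewer arrays, other scaling, a level filter, a trended robust fit (statmod 1.5.0), and each array or experiment left out. Promoter and protein sequences were not analysed here.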

Additional observations from a re-analysis of the deposited data

Results flagged for a closer look

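For 89 of the 171 named genes the change from 1 to 6 h differed between minus Pi and plus Pi roots by limma's test of the difference itself (adjusted p of 0.05 over all probe sets), 40 of them more positive and 49 more negative without Pi. The values are the minus Pi change less the plus Pi change on the log2 scale; groups of 3 arrays were too small for a test of single outlying arrays.

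Among genes of carbon salvage, fat breakdown, respiration and autophagy, the difference was 3.94 for ICL, 3.78 for ASN1, 3.28 for PPDK, 3.24 for MSS1, 2.00 for NDB4, 1.36 for AT2G21640, 0.94 for ACX2, 0.86 for AT3G53930, 0.80 for PKT3, 0.68 for CSY2 and 0.61 for ATG13. On the negative side of this group it was -0.50 for AT1G76550, -0.64 for AT1G12000, -0.85 for AT1G20950 and -1.59 for DIC2.

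Among Pi, iron and nitrogen genes, the difference was 2.99 for NRT1.8, 2.24 for FER1, 1.28 for LPR1, 1.04 for LPR2, 0.77 for PAH2, 0.66 for MGD1 and 0.65 for PHR1. On the negative side of this group it was -0.49 for PHT3;1, -0.73 for GS2, -0.81 for ASN2 and -1.71 for OPT3.

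Among hormone, ageing, detoxification and proton pump genes, the difference was 3.23 for JAZ10, 3.01 for NAC6, 2.63 for GSTU25, 1.38 for HA3, 1.13 for RD26, 1.11 for HA7, 1.03 for CTR1, 0.98 for ERS1, 0.91 for NYE1, 0.85 for HA8 and 0.48 for EIN2. On the negative side of this group it was -0.83 for IAA14 and -0.85 for IAA1.

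Among wall and cell surface genes, the difference was -1.02 for EXPA14, -1.42 for FLA2, -1.61 for CER4, -2.34 for XTH19, -2.41 for XTH21, -2.52 for AGP4, -2.57 for EXLA2, -2.60 for sks15, -3.20 for AGP22, -3.28 for XTH16 and -3.58 for AGP13.

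Among cytoskeleton, division and ribosomal genes, the difference was -0.48 for RPS28, -0.51 for RPL5B, -0.57 for TUB7, -0.64 for RPL23AB, -0.99 for AUR1, -1.01 for CYCB1;1, -1.06 for AUR2, -1.26 for TUB5, -2.16 for ACT11 and -2.75 for TUB1.

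Among touch, clock, water channel and epidermal genes, the difference was -1.40 for TCH2, -1.48 for WRKY18, -1.53 for TCP11, -1.82 for NLM1, -1.91 for MYB66, -2.03 for EXO, -2.39 for AT1G76640 and -3.11 for PHI-1.

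Among the genes named for size or for their adjusted p, the difference was 4.66 for AT3G60420, 3.82 for LCR67, 3.75 for AT2G41380, 3.70 for NIT4, 2.92 for PGIP1, 2.67 for BGLU25, 2.67 for Rap2.6L, 2.26 for AT5G61890, 2.23 for AT4G33666, 1.26 for AT5G19440 and 0.77 for SNF7.1. On the negative side of this group it was -1.55 for CDI, -1.69 for BME3, -2.15 for AT5G47440, -2.47 for AT1G59660, -2.57 for AT5G15725, -2.73 for AT3G59370, -2.80 for AT4G22460, -2.81 for AT1G76240, -3.15 for AT4G25250 and -3.57 for AT1G09750.

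With each of 12 arrays left out singly, 62 of the 89 differences kept their call, and 26 of these kept it also with each experiment left out. ASN1 kept it with 3 of the 12 single arrays left out, PPDK, EXPA14 and ASN2 with 2.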

How the results depend on the processing

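No call of the main fit changed sign under any alternative, and the counts were what moved. The experiment numbers pair the arrays; with no replicate block the fit called 3681 probe sets without Pi, 132 with Pi and 335 for the difference, against 6842, 487 and 2059 with the block, and it ended the call of 39 of 171 named genes. Without the block, 3 nitrate and ammonium genes fell and 5 ribosomal protein genes. Fitted to the arrays compared alone, the counts were 4169, 29 and 888, where fewer arrays gave the spread. Without the 3 arrays numbered out of sequence, the plus Pi count was 255 and the difference 1029. With 1 experiment left out the counts ran from 3707 (without experiment 2) to 5145 without Pi, from 87 to 157 with Pi, and from 242 to 703 for the difference. With 1 array left out they ran from 5152 to 6756, from 232 to 437, and from 1131 to 2853. The difference was 1260 without the 6 h minus Pi array of experiment 1, 1351 without the 1 h minus Pi array of experiment 2, 1131 when the 6 h array of experiment 3 with Pi was dropped, and 1316 and 1145 without the 1 h plus Pi arrays of experiments 1 and 3. With Pi the count was 232 when the 6 h array of experiment 1 or of experiment 2 was dropped, and 294, 282 and 298 when the 1 h arrays of experiments 1 to 3 were. The cause of these moves was not tested. Median centring turned the difference from 46.7% to 36.5% positive, and quantile scaling turned it to 40.0%. Under the random block, quantile scaling, the level filter and the trended robust fit, all of these counts stayed within 1.5 times. The count of at least 2-fold changes, 1111, ran from 882 to 1375 over all alternatives except the level filter (758). A fit to the 12 minus Pi arrays alone, chosen after seeing the data, called 5518.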

Other observations

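Of 13 flavonoid genes, 4 fell without Pi and 1 with Pi, with medians of -0.16 and -0.10. F3H, flavanone 3-hydroxylase, went from 7.31, 7.79 and 7.04 at 1 h to 4.42, 4.65 and 4.82 at 6 h, a fall of 2.75 (SE 0.55, limma adjusted p = 0.0012), and it fell by 2.47 with Pi (adjusted p = 0.024). FLS1, flavonol synthase, fell by 1.48, a call lost without experiment 3 (adjusted p = 0.071). TT4, chalcone synthase, fell by 1.19, a call lost without experiment 2 or 3 (adjusted p = 0.12 and 0.15) and in some other leave-outs. Without experiment 3 the count was 1, and without experiment 2, the 1 h array of experiment 2 or 3, the 6 h array of experiment 2 or the 2 arrays with a suffix it was 2.

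Of 6 plasma membrane proton pump genes, 4 rose and 1 fell without Pi, with a median of 0.61 (-0.02 with Pi). HA3 stood at 5.92, 5.84 and 6.42 at 1 h and at 7.86, 7.05 and 7.64 at 6 h, a rise of 1.46 (SE 0.24), with no overlap of the groups. HA2, a main pump of roots, rose by 0.42, a call ended by 6 of the 11 leave-outs. HA11 fell by 0.54. The count of rises was 2 without experiment 1 or 2, without the 6 h array of experiment 2, or without the 3 arrays numbered out of sequence.

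Of 11 low-oxygen genes, 2 rose and 1 fell, shares near or below the 14.8% and 15.3% of all probe sets. PDC2, a pyruvate decarboxylase, rose by 2.14 (SE 0.44) without Pi, from 6.41, 6.39 and 6.61 to 9.15, 8.12 and 8.56, and stood 1.49 higher with Pi (adjusted p = 0.10). Among 9 cytokinin response genes, the response regulators ARR9, RR5 and ARR6 fell by 0.82, 1.01 and 0.89, and the list's median was -0.31 without and -0.40 with Pi. Of 15 auxin genes 4 fell and 1 rose, the rise at a share below the 14.8% of all probe sets. The repressor gene IAA14 fell by 1.19 (SE 0.12) and the conjugating enzyme gene GH3.3 rose by 1.40 (SE 0.27). Of 9 glutathione transferases 1 rose and 1 fell, shares below those of all probe sets. GSTU25 rose by 1.77 without Pi (SE 0.45; adjusted p = 0.10 without experiment 3), and GSTU28 was 2.15-fold lower.

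Of 15 heat shock genes 4 fell and 1 rose, and without experiment 1 the number of falls was 1. Of 17 abscisic acid genes 5 rose and 2 fell, the falls at a share below the 15.3% of all probe sets. HAI1, a phosphatase of the pathway, rose by 1.39 (SE 0.31, and adjusted p = 0.080 without experiment 2). The number of rises in the list without that experiment was 0 by limma.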
